A study of Mus musculus and Ochotona curzoniae and Rattus norvegicus with 18 samples.

Results

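Cyclins E1 and E2 (CCNE1, CCNE2), cyclin A2 (CCNA2), cyclins B1 and B2 (CCNB1, CCNB2), the cyclin-dependent kinases CDK1 and CDK2 and the transcription factors E2F1, E2F7 and E2F8 were compared between cultured fibroblasts of the Tibetan pika and the mouse. These 10 genes were picked by name as the cyclins, kinases and E2Fs of S phase and mitosis, and all 10 were among the 14418 genes whose symbol occurs once in the pika table and once in the mouse table. The Tibetan pika, Ochotona curzoniae, is a small high-altitude relative of rabbits, and its strain is not given. The mouse cells came from strain C57BL/6J. Each species had 3 RNA-seq libraries. Cells of both species grew in DMEM with 10% serum at 37 °C and 5% CO2 and were lysed at 90% confluency, with no treatment, age or synchronisation given in the labels. The tissue is given as epidermis and the cells as fibroblasts. Whether the libraries of 1 species are separate animals, separate cultures or neither is not in the labels, so the p-values speak of the variation among these libraries alone, and that variation may be technical. The series also holds 3 rat (strain SD) and 3 White New Zealand rabbit libraries, for which no table used here gives symbols, and 6 ChIP samples. Neither is analysed here.

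The cell cycle is driven by kinases that are inactive without a cyclin. Cyclin E binds CDK2 at the entry into S phase, cyclin A2 binds CDK2 and later CDK1, and cyclin B binds CDK1 to drive mitosis. The genes of these proteins are held off in resting cells by retinoblastoma family proteins bound to E2F factors and by the MuvB complex, and are switched on as a cell commits to divide. E2F1 is an activator that pairs with a DP protein. E2F7 and E2F8 are atypical repressors that bind DNA without DP, are themselves E2F targets, and shut S phase genes down again. Transcripts of CCNB1, CCNB2 and CDK1 peak late in the cycle through promoter elements called CHR and CCAAT, the latter bound by NF-Y, and transcripts of CCNE1, CCNE2 and E2F1 peak at the start of S phase. In RNA from a whole culture, a smaller share of cells in S phase or mitosis and less RNA per cell cannot be told apart.

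The mouse promoters of 4 of these genes are shown because CDK1, CCNB1 and CCNB2, the mitotic kinase and its cyclins, and the repressor E2F7 were all higher in pika and each carries a pair of CCAAT boxes 32 or 33 bases apart. The bases come from RefSeq (GRCm38.p6), which matched 8 of the 10 genes, and are the 250 upstream of the annotated start, 5′ to 3′ on the gene's own strand. Capitals mark CCAAT boxes (CCAAT, or ATTGG on the other strand), CHR elements (TTTGAA or TTCGAA, either strand) and E2F sites (TTTCCCGC, TTTGGCGC, TTTCGCGC or TTTGCCGC, either strand). The motifs do not overlap each other in the stretches shown. CDK1 is chr10:69352913-69353162, minus strand, CCNB1 is chr13:100786487-100786736, minus strand, CCNB2 is chr9:70421555-70421804, minus strand, and E2F7 is chr10:110745189-110745438, plus strand.

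CDK1: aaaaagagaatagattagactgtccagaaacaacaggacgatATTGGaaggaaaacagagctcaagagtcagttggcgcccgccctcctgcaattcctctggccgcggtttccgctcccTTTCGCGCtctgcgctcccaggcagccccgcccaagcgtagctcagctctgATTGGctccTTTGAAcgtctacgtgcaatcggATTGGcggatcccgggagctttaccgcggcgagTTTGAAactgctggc

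CCNB1: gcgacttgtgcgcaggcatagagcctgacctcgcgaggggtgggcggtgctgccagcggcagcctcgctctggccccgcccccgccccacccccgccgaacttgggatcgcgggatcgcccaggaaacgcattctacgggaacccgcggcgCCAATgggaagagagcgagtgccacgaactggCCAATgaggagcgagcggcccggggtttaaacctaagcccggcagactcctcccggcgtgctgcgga

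CCNB2: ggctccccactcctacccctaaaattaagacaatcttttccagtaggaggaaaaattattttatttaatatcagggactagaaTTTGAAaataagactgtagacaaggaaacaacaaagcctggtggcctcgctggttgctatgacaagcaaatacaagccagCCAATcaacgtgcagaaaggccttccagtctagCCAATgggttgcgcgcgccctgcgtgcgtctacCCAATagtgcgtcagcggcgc

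E2F7: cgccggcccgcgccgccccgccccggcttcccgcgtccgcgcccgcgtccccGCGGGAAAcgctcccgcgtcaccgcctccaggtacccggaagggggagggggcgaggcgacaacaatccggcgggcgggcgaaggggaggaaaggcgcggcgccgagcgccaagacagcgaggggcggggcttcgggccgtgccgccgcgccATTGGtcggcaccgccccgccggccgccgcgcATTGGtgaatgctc

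In a window from 250 bases before to 50 after the start, CCAAT was found in 6 of the 8 genes with a sequence and in 37.4% of all 32851 mouse windows. The CHR letters were found in 3 of 8 (CCNB2, CDK1 and E2F8) and in 19.2% of all windows, and the E2F letters in 3 of 8 (CDK1, CDK2 and E2F7) and in 2.27% of all windows. The first bases of neighbouring CCAAT boxes lay 32 apart in CCNB1 and E2F7, 33 apart in both steps of CCNB2, and 128 and then 32 apart in CDK1. Such a pair, on 1 strand and 32 or 33 bases apart, was in 4 of the 8 windows and in 0.487% of all windows. This spacing was looked for after the sequences had been seen. In CDK1 a CHR element began 15 bases before the start, in E2F8 20 before the start used for its window, and a second one in CCNB2 lay just past the start at base 5. No match was found in the windows of CCNE1 and E2F1, which says only that these letters are not there. The RefSeq windows of E2F1 and E2F8 belong to starts that lie 466 and 477 bases inside the gene spans given for these genes, so they do not show the sequence before the outermost start. For the other 6 genes the window's start is the outer end of the span. A match describes the letters and does not show binding, and no pika promoter was examined.

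Levels are given as FPKM (fragments scaled by gene length and by the library's total) that were rescaled so that the joined genes of each library sum to 1000000, because the joined genes held 87.1% of the FPKM in each pika library but 37.0% to 38.3% in mouse. Log2 fold changes set pika over mouse after 1 was added to each value. A call needed a log2 fold change of at least 1 in size together with an adjusted p below 0.05. By limma-trend, 9 of the 10 genes were called higher in pika and none lower, while 28.7% of all 10348 tested genes were called higher and 23.5% lower. CCNE1 was the gene not called. Every one of the 10 had its 3 pika libraries above its 3 mouse libraries, as did 49.6% of all tested genes. The median log2 fold change over the 10 was 2.55 and over all tested genes 0.21. E2F7 passed the filter on low values only through pika, since its mouse mean was 0.822 deposited FPKM, and the other 9 passed it in both species.

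**Figure D1:**
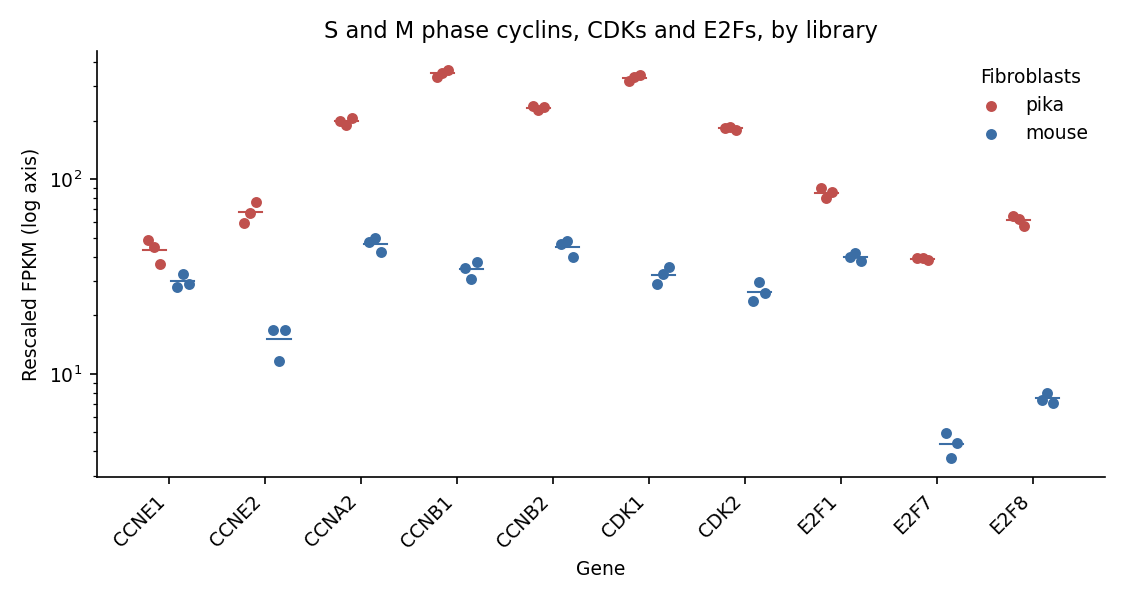
Rescaled FPKM (log axis) of each gene in each library, with 3 pika libraries (red) and 3 mouse libraries (blue) as points and their mean as a line. The gap is widest for CCNB1 and CDK1 and narrowest for CCNE1, whose lowest pika library (36.7) lies just above its highest mouse library (32.6).

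By values divided by gene length, the mitotic genes came first in pika. CCNB1 encodes the cyclin that carries CDK1 into the nucleus at mitosis. Its level was 335, 353.9 and 364 in the pika libraries and 34.9, 30.9 and 37.5 in the mouse libraries. The means, 351 ± 14.7 and 34.5 ± 3.34 (SD, n = 3), differed 10.2-fold, a log2 fold change of 3.31 (SE 0.07, limma-trend adjusted p = 2.4e-10). CDK1, its kinase and the CDK that drives mitosis, stood at 320.2, 335 and 342.3 in pika and at 28.9, 32.8 and 35.3 in mouse. This was a 10.3-fold difference of means, with a log2 fold change of 3.33 (SE 0.07). The kinase and its cyclin thus lay close together in each species, and both far apart between species.

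CCNB2, a cyclin B found mostly at the Golgi, was at 237.5, 228 and 234.3 in pika and at 46.3, 48.2 and 39.8 in mouse, for a log2 fold change of 2.36 (SE 0.07). Its spread was small in pika, where the highest library was 1.04 times the lowest, against 1.21 times in mouse. The mouse table also held rows for a pseudogene of CCNB1, at 0.405, 0.424 and 0.655 deposited FPKM, and for one of CCNB2, at 0.756, 0 and 0.459. Reads of such near copies can be split between rows. Adding them to their genes left the log2 fold changes at 3.21 and 2.29.

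CCNA2 is the cyclin of S and G2 phase. It was at 200.5, 189.9 and 206.4 in pika and at 47.5, 49.998 and 42.3 in mouse, a 4.27-fold difference of means and a log2 fold change of 2.07 (SE 0.07). In mouse it had the highest mean of the 10 genes, and its libraries overlapped those of CCNB2, the next in order. CDK2, the kinase of cyclins E and A, was at 183.1, 185.3 and 180.3 in pika and at 23.8, 29.8 and 25.9 in mouse, for a log2 fold change of 2.75 (SE 0.08). CDK2 and E2F7 varied least of the 10 in pika, each with a highest library 1.03 times the lowest.

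The E cyclins differed from each other. CCNE2 was at 59.4, 67.2 and 76.2 in pika and at 16.8, 11.6 and 16.8 in mouse, for a log2 fold change of 2.11 (SE 0.15, limma-trend adjusted p = 6.4e-07). CCNE1 was at 48.6, 44.8 and 36.7 in pika and at 28.0, 32.6 and 29.1 in mouse. Its means of 43.4 ± 6.09 and 29.9 ± 2.41 differed 1.45-fold, and the log2 fold change of 0.51 (SE 0.11) had a limma-trend adjusted p of 0.0018 but stayed under the fold minimum. Within pika, the library with the most CCNE1 had the least CCNE2 and the library with the least CCNE1 had the most CCNE2, on 56, 49 and 44 reads of CCNE1 and 233, 250 and 311 of CCNE2.

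Among the E2Fs of these 10 genes, the repressors E2F7 and E2F8 had larger log2 fold changes than the activator E2F1. E2F7 passed the filter on low values only through pika, so its fold change supports no contrast between repressors and activators. That leaves E2F8 alone against E2F1. The activator E2F2, outside the list, had a log2 fold change of 2.95 on 4 mouse reads and also passed the filter only through pika. E2F7 was at 39.4, 39.5 and 38.4 in pika and at 4.97, 3.70 and 4.42 in mouse libraries, an 8.97-fold difference of means and a log2 fold change of 2.91 (SE 0.12). E2F8 was at 64.9, 62.5 and 57.5 in pika and at 7.36, 7.98 and 7.12 in mouse, for a log2 fold change of 2.88 (SE 0.09). These were the 2 lowest genes of the 10 in mouse. E2F1 was at 90.2, 80.1 and 86.2 in pika and at 39.9, 41.8 and 38.3 in mouse, a 2.14-fold difference and a log2 fold change of 1.08 (SE 0.07), just inside the call.

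The order of levels, which are divided by gene length, also differed between species. In pika it ran CCNB1, CDK1, CCNB2, CCNA2, CDK2, E2F1, CCNE2, E2F8, CCNE1 and E2F7, and the neighbours CCNB1 and CDK1, CCNE2 and E2F8, and CCNE1 and E2F7 overlapped. In mouse it ran CCNA2, CCNB2, E2F1, CCNB1, CDK1, CCNE1, CDK2, CCNE2, E2F8 and E2F7. From CCNA2 down to CDK2 these mouse levels spanned only 46.6 to 26.5, and every neighbouring pair in that stretch overlapped except E2F1 and CCNB1. In pika the first 5 genes spanned 351 to 182.9. By reads, CCNB1 (5587) also came first in pika, but CDK2 (5034) and CCNA2 (4287) lay above CDK1 (3817) and CCNB2 (3593). CCNA2 (505) also came first by reads in mouse.

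A gene's position within its library does not depend on how the library is scaled, though it does depend on gene length. Among joined genes above 0 in a library, CCNB1 lay at the 95.8th to 96.2nd percentile in the pika libraries and at the 56.7th to 62.8th in mouse. CDK1 lay at the 95.5th to 95.9th and the 53.6th to 61.1st, and CDK2 at the 90.4th to 90.7th and the 48.8th to 55.9th. E2F7 lay at the 56.5th to 56.9th in pika, near the middle of the library, and at the 23.2nd to 26.5th in mouse. E2F1 lay at the 75.7th to 78.4th and the 62.5th to 65.0th. CCNE1, at the 55.3rd to 62.5th in pika and the 52.8th to 58.0th in mouse, was the only one of the 10 whose species overlapped on this measure. How many of all tested genes stand apart on it was not counted, so no background share can be set beside this. E2F1, which stood apart here, changed sign without division by gene length (-0.17).

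Gene length entered each value, and the gene models of the species differ. The models had 1413 bases in pika and 4217 in mouse for CCNB1, 1019 and 3445 for CDK1, 1911 and 4083 for CCNA2, 1041 and 3495 for CCNE2, 2941 and 9009 for E2F7 and 2880 and 5443 for E2F8. The most unequal were E2F1, with 639 and 3154 bases, and CCNE1, with 306 and 1331. For CDK2 (2445 and 2432 bases) and CCNB2 (1367 and 1531) the models were nearly equal, with ratios of 0.995 and 1.12. Over all tested genes the mouse model was longer by a median factor of 2.25. Among the 1276 tested genes with a ratio between 0.8 and 1.25, 16.3% were called higher in pika, and CDK2 and CCNB2 were among them. These lengths, and the reads behind them, were worked out from the steps of the FPKM values and are the smallest that these allow, so both can be too small by a shared whole factor.

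Reads were also scaled to their sum over the joined genes with reads worked out in both species, without division by length. Scaled this way, 8 of the 10 stayed called higher, and so were 25.7% of the 9946 genes tested. CDK2 (log2 fold change 3.76), CCNB2 (3.19) and E2F8 (3.04) then lay above their main values, and CCNB1 (2.78), CDK1 (2.603), E2F7 (2.48), CCNA2 (2.02) and CCNE2 (1.40) below them. E2F1 and CCNE1 changed sign, to -0.17 (limma-trend adjusted p = 0.11) and -0.50 (adjusted p = 0.0072). E2F1 also fell under the fold minimum with median-of-ratios scaling (0.90). Reads over the 3 libraries were 616 in pika and 335 in mouse for E2F1, and 149 and 105 for CCNE1. The lowest mouse totals among the other genes were 107 for E2F7 and 108 for E2F8, and a single mouse library held as few as 23 reads of E2F7. Pika totals of the called genes ran from 616 to 5587 reads. Reads are collected only where a model lies, so the values without length depend on the models too. Reads too small by a whole factor would leave the main value as it is but would shift the value without length. The shift would be down for pika reads and up for mouse reads. The recovery of reads was not tested on pika models, so this limit holds for every sign change without length given here and below.

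**Figure D2:**
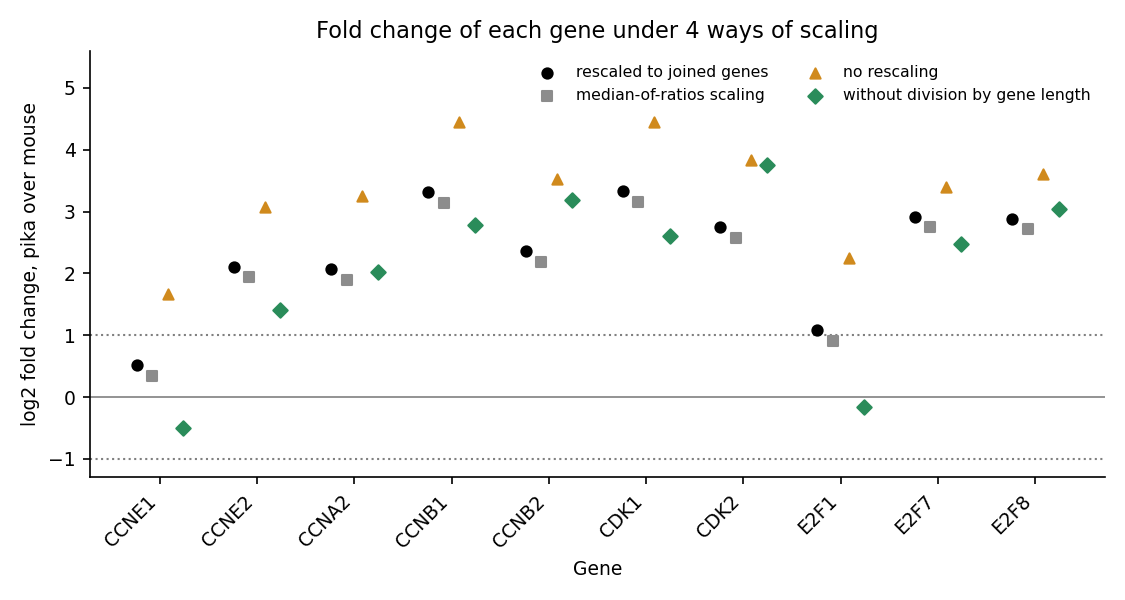
Log2 fold change, pika over mouse, of each gene with values rescaled to the joined genes (black), with median-of-ratios scaling (grey), without rescaling (orange) and without division by gene length (green); dotted lines mark the fold minimum of 1 in each direction. For 8 genes all 4 points lie above 1, while CCNE1 and E2F1 lie on both sides of 0.

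Without rescaling, all 10 genes were called higher, CCNE1 at 1.66, but so were 58.3% of all tested genes, and the median over all tested genes then moved from 0.21 to 1.29. Set against that median, CDK1 was 3.11 higher with rescaling and 3.17 without, E2F8 2.67 and 2.33, and CCNE1 0.30 and 0.37.

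Differences between genes of the same library were taken for 8 pairs. They cancel a library scale only in part, because of the 1 added to each value, and do not cancel gene length. The added 1 weighs most at low levels, as for E2F7 and E2F8 in mouse. With 3 libraries against 3 an exact permutation test cannot go below p = 0.10, and the adjusted p over the 8 pairs cannot pass the threshold, so these values are a description. E2F1 exceeded E2F8 by 2.29, 2.25 and 2.27 on the log2 scale in the mouse libraries and by 0.47, 0.35 and 0.57 in pika, so the activator stood less far above this repressor in every pika library (exact permutation p = 0.10, adjusted 0.13). For E2F1 and E2F7 the differences were 2.78, 3.19 and 2.86 in mouse and 1.17, 1.00 and 1.15 in pika. Without division by length these shifts between species were -3.21 and -2.65, in the same direction as the -1.81 and -1.83 with it. With 0.1 added to each value in place of 1, the shift of E2F1 minus E2F8 was -1.93. E2F7 passed the filter on low values only through pika, so its pair with E2F1 supports nothing about repressors as a group. E2F7 minus E2F8 overlapped between the species, at -0.64 ± 0.07 for pika against -0.67 ± 0.24 for mouse (SD, n = 3), a shift of 0.03 that was -0.56 without length.

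The cyclin E pair crossed over in values divided by gene length. By reads, CCNE1 lay below CCNE2 in every pika library. It also did so in mouse 1 (40 and 63 reads) and mouse 3 (35 and 53), but not in mouse 2 (30 and 28). CCNE1 minus CCNE2 was 0.70, 1.42 and 0.76 in mouse and -0.29, -0.57 and -1.04 in pika, a shift of -1.59 that was -1.90 without length. CCNA2 minus CDK2 was also lower in pika, at 0.12 ± 0.08 against 0.79 ± 0.15 (SD, n = 3), a shift of -0.67, and of -1.74 without length. CCNB1 minus CDK1 did not separate the species, at 0.08 ± 0.01 in pika and 0.09 ± 0.17 in mouse. CCNB1 minus CCNB2 (a shift of 0.95) and CDK1 minus CDK2 (0.58) separated them but took the opposite sign without length, at -0.41 and -1.16.

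**Figure D3:**
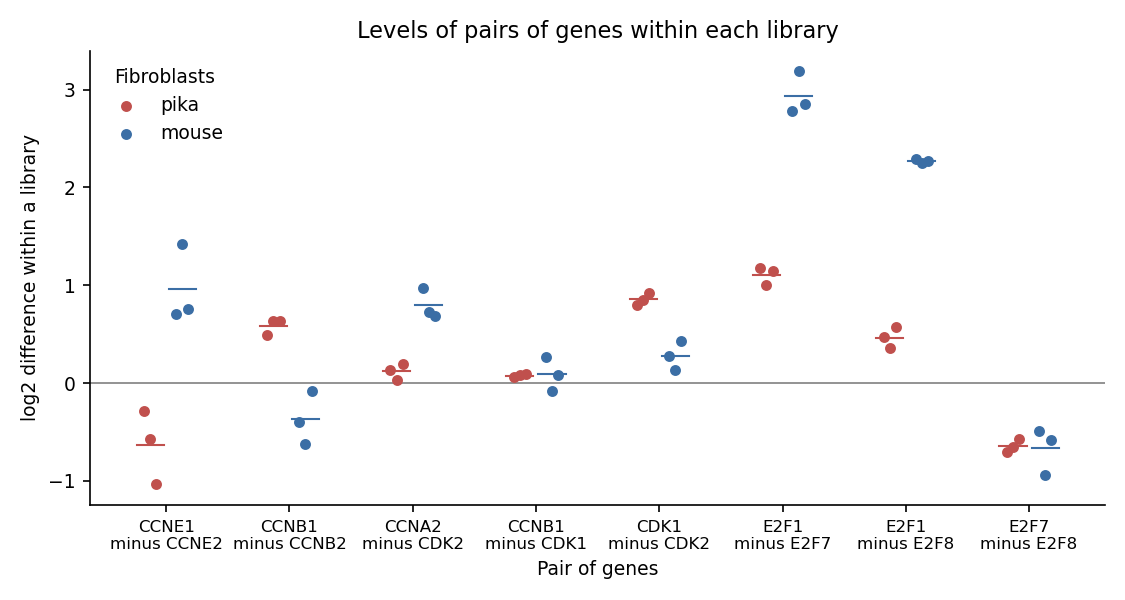
Log2 difference of rescaled FPKM + 1 between the genes of each pair, with 1 point per library (pika red, mouse blue) and the mean as a line. Points of the species stand apart for 6 of the 8 pairs and overlap for CCNB1 minus CDK1 and E2F7 minus E2F8.

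The other genes of the pathway were taken from lists drawn up with earlier results of these data known, and the lists are described by their counts. The share of all tested genes called higher, 28.7%, stands for each of them as the background. For counts without division by gene length the background is 25.7%. E2F2, MYBL2, LIN9 and CDC6, like E2F7, passed the filter on low values only through pika, where they are high, so their calls support nothing about their lists. Among the proteins that hold these promoters in check or open them, the pocket proteins with MuvB, MYBL2 and FOXM1, limma-trend called 6 of 10 higher and 1 lower and left 3 without a call (60.0% higher), at a median log2 fold change of 2.05. FOXM1, the activator of mitotic genes, is given after its values were seen. It was called higher (2.602), but its models have 210 and 5754 bases, and without length it was called lower (-1.02). MYBL2, the B-MYB factor that turns MuvB into an activator, was at 120.3 ± 3.52 in the pika libraries and 3.60 ± 0.873 in the mouse ones (SD, n = 3), or 4.74 on the log2 scale. The MuvB subunit LIN9 (3.77) and RBL1, the p107 pocket protein (3.14), were higher too. RB1 itself, at 70.8 ± 4.33 and 35.8 ± 2.33, was not called (0.97) and was called without length (1.60), without pika replicate 1 (1.02) and without mouse replicate 1 (1.01). The lower gene was LIN52 (-1.07), which the naming rule did not pick and which is given because its value was seen. It took the opposite sign without length (0.25) and without rescaling (0.10), and it was not called without pika replicate 3 (-0.997) or mouse replicate 1 (-0.93).

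Of the other E2F and DP factors, 2 of 7 were called higher and none lower, a share of 28.6% that is no higher than the background (median 0.55). The activator E2F2 had a log2 fold change of 2.95, from 0.674 ± 0.445 in mouse, on 4 reads, to 11.7 ± 0.988 in pika. The DP partner TFDP2 was also called (1.57), but its model had 1190 bases in pika and 14029 in mouse, and its value without length was -0.85. TFDP1, the main partner of E2F1, was at 187.1 ± 5.66 and 115.6 ± 9.68 and was not called (0.69).

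Regulators of the kinases followed no single direction. Of 8 CDK activators and phosphatases, 3 were called higher and none lower (37.5% higher, median 0.37), and 4 higher and 2 lower without length. CDC25B (3.31) and CDC25A (3.23), phosphatases that remove the inhibitory phosphate from CDKs, and the CDK-binding subunit CKS2 (1.48) were the higher genes, while CKS1B was not called, at 89.7 and 125.6. Both kinases that place the inhibitory phosphate were also called higher, WEE1 at 75.0 ± 1.40 against 23.3 ± 2.96 (1.65) and PKMYT1 (2.08). Of the CIP/KIP inhibitors, 2 were tested. CDKN1A, the p21 inhibitor of CDK2 complexes, was called lower, at 43.8 ± 4.36 against 1105 ± 19.7 (-4.63), and CDKN1B, the p27 inhibitor, higher, at 126.8 ± 2.30 against 36.1 ± 3.20 (1.79).

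The cyclins and kinases that act before S phase were split. Among 9 G1 genes, 4 were called higher (44.4%) and 2 lower, and their median log2 fold change was 0.98. CDKN2C, an INK4 inhibitor (4.36), CDK6 (3.46) and cyclin D3, CCND3 (3.40), were higher. Without length CDK6, with models of 1658 and 13989 bases, was at 1.49, and CCND3, with 1001 and 8775, at 1.33. Named after their values were seen, CDKN2D (1.06) was the other gene called higher, though not without length (0.41), with median-of-ratios scaling (0.88), with a pseudocount of 5 (0.95), without pika replicate 2 (0.97) or without mouse replicate 3 (0.94), and cyclin D1, CCND1 (-2.601), and cyclin D2, CCND2 (-2.17), were lower, CCND2 without a call when values were not rescaled (-0.88). CDKN2A was not called (0.98), at 762 ± 15.5 and 385.3 ± 6.79, but was called higher without length (3.41) and without rescaling (2.264).

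Of 21 genes that carry out or regulate cyclin destruction by the SCF and APC/C ubiquitin ligases, 14 were called higher (66.7%) and 1 lower (median 1.20). UBE2C, the ubiquitin-conjugating enzyme of the APC/C, reached 351.9 ± 4.25 against 34.4 ± 4.81 in mouse (3.33). The APC/C subunit ANAPC11 (2.73) and UBE2S (2.597) also led this list, but the ANAPC11 models have 255 and 5057 bases and its value without length was -0.49, while UBE2S lost its call (0.70). ANAPC5 was not called (0.63). ANAPC2, named after its value was seen, was lower (-1.59), without a call when values were not rescaled (-0.30). Without length the counts of this list were 6 higher, 3 lower and 12 not called, where 25.7% of all tested genes were called higher. Its median was then 0.27, against 0.052 over all tested genes, so the larger share called higher depended on gene length.

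Genes known as E2F targets in S phase were called higher in 13 of 14 tested (92.9%) and lower in none, with a median of 3.25. TK1, thymidine kinase, was at 228.5 ± 18.01 and 14.0 ± 1.45 (3.93), and CDC6, which loads the replicative helicase, at 58.8 ± 2.59 and 3.60 ± 1.505 (3.75), with MCM2 at 4.08. RRM2 was not called, at 249.1 ± 3.36 and 314.5 ± 10.8. Mitotic regulators were called higher in 15 of 15, with a median of 3.14, among them the checkpoint gene MAD2L1 (3.90), the spindle motor KIF11 (3.76) and the checkpoint kinase TTK (3.69). Without length the counts were 13 of 14 and 14 of 15. Cyclins and CDKs that are not tied to S phase or mitosis were called higher in 4 of 21, lower in 2 and not called in 15 (19.0% higher), with a median of 0.35 that was -0.087 without length. The lower ones were CDK18 (-4.42), on 2 pika reads, and CCNG1 (-4.29). CDK18 passed the filter on low values only through mouse, so its call supports nothing about the list. The higher ones were CDK14 (2.65), which was -0.087 without length, and, named after their values were seen, CCNC (1.94), CDK12 (1.52) and CDK8 (1.27). CCNI was not called, at 139.4 and 195.8. Whether one list differs from another was not tested.

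**Figure D4:**
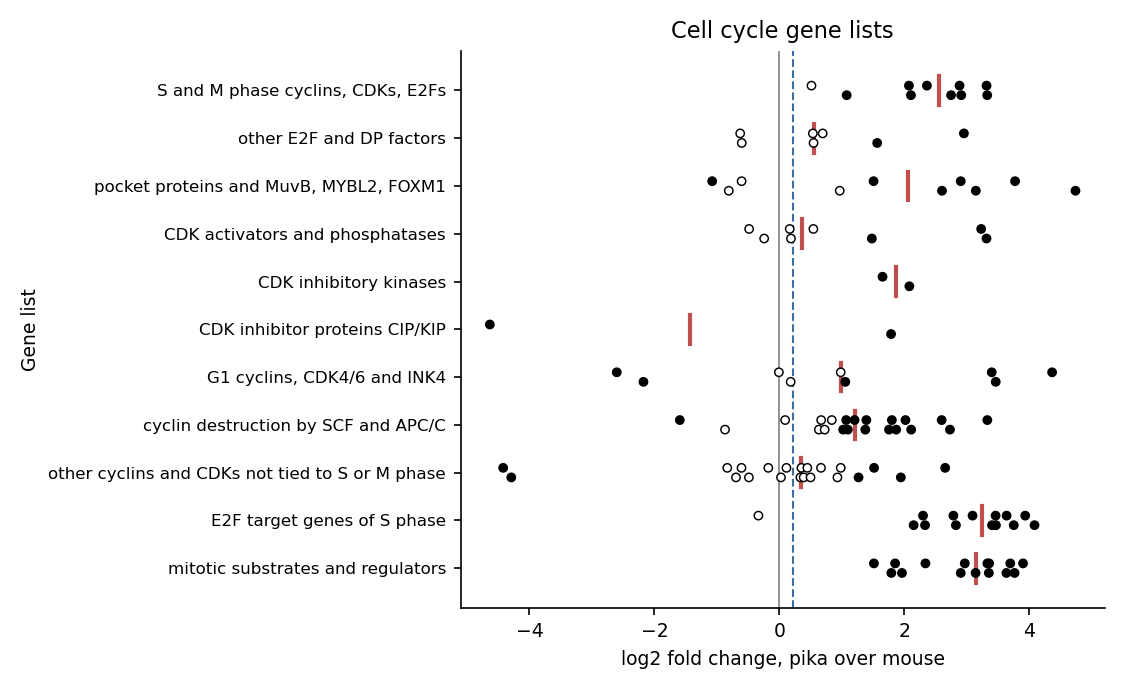
Log2 fold change, pika over mouse, of each tested gene in the cell cycle lists, with filled points called and open points not called, a red bar at the list's median and a dashed blue line at the median of all tested genes (0.21). The S and M phase genes, the E2F targets and the mitotic regulators lie almost wholly right of the blue line, while the G1 and the other cyclin and CDK lists lie on both sides of 0.

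The 5 genes outside the list whose levels over the 6 libraries lay closest to the mean profile of the 10, by Euclidean distance of log2(value + 1), were PRKD3 (distance 0.21), TFAM (0.23), HAUS4 (0.24), MIER1 (0.24) and NUDT5 (0.25). PRKD3, a protein kinase, reached 111.4 in pika against 22.2 in mouse.

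The cells' label as fibroblasts was set against marker genes. The 16 fibroblast markers in both tables summed to between 16804 and 17272 in the pika libraries and between 24104 and 24550 in mouse, with VIM at 4335 and 5298. Of these 16, 2 were called higher and 8 lower in pika, with a median log2 fold change of -0.65. Over all tested genes 28.7% were called higher and 23.5% lower, with a median of 0.21. Without rescaling 8 of the 16 were called higher and 4 lower, with a median of 0.65. In that setting 58.3% of all tested genes were called higher, with a median of 1.29. Set against the median of all tested genes, the marker median was -0.86 with rescaling and -0.64 without, so it lay below in both. Named after their values were seen, COL3A1 (22.9 and 954.8), POSTN (1.04 and 89.6) and PDGFRA (3.47 and 65.1) were far lower in pika, FAP (41.7 and 1.23) was far higher, and COL1A1 stood at 4787 and 4811. FAP passed the filter on low values only through pika and POSTN only through mouse, so their calls support nothing about the list. The 12 keratinocyte markers summed to between 26.6 and 29.1 in pika, where 8 were listed at 0 in every library, KRT5 and KRT14 among them, and to between 63.5 and 67.8 in mouse. The mouse sum was mostly DSP (0.153 in pika and 45.2 in mouse) and the pika sum nearly all PKP1, at 26.7 against 0.073 in mouse, a gene named after its values were seen. The 6 melanocyte markers summed to between 68.1 and 78.5 in pika and between 54.8 and 58.3 in mouse. MITF (40.2 and 50.5) and PMEL (31.6 and 4.97, the latter named after its values were seen) made up nearly all of both. Of the 6, 1 was listed at 0 in every pika library (TYRP1) and 2 in every mouse library (TYR and SOX10). Endothelial markers, 8 in all, summed to at most 1.60 in pika and to between 34.5 and 39.5 in mouse, mostly TEK. The 8 macrophage and leukocyte markers summed to between 14.5 and 15.2 in pika and between 34.8 and 44.1 in mouse, with CD68 at 3.35 and 15.8 and PTPRC listed at 0 in pika. CD14, named after its values were seen, was at 10.8 and 8.02 and made up most of the pika sum. The summed level of the 10 cell cycle genes was between 1579 and 1622 in pika and between 276.6 and 289.4 in mouse, and the part of other cell types in that difference was not tested. Library totals behind the FPKM were 7703576 to 8481030 reads in pika and 3663102 to 5758950 in mouse, so a mouse level rested on fewer reads. The mean chi-square per gene between libraries of a species was 1.16 to 1.25 in mouse and 1.36 to 1.55 in pika, where sampling alone gives about 1, and each library was counted as 1 replicate. Species, genome, annotation and culture cannot be told apart in this design.

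In mouse GRCm38 the genes lie on chromosome 7 from 38097984 to 38107490 (CCNE1) and from 48866429 to 48882073 (E2F8), chromosome 4 from 11190433 to 11204779 (CCNE2), chromosome 3 from 36564865 to 36573038 (CCNA2), chromosome 13 from 100778739 to 100786486 (CCNB1), chromosome 9 from 70407689 to 70421554 (CCNB2) and chromosome 2 from 154559400 to 154569892 (E2F1). Chromosome 10 holds CDK1 from 69335146 to 69352912, E2F7 from 110745439 to 110787384 and CDK2 from 128697938 to 128705051.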

How the data were processed

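RNA-seq of pika and mouse fibroblasts was used, with 3 libraries per species. The authors deposited 1 FPKM value per gene and library. The submitters' processing notes list CASAVA 1.9, STAR 2.6.1a, featureCounts and edgeR 3.28.1, and GRCm38 as the build, without roles. Which annotation was used for which species the labels do not say. Mouse identifiers were named with a table that gave a symbol for 49326 of 49585 rows, and 14418 symbols found once in each species were joined. Values were rescaled to sum to 1000000 over the joined genes. The 10348 genes with a mean deposited FPKM of at least 1 in either species were tested on log2(value + 1) by two-sided limma-trend (R 4.3.3 and limma 3.58.1) with Benjamini-Hochberg adjustment over all of them. Whole reads, gene lengths and totals were worked out from the FPKM steps with a tolerance of 0.002 reads. The fit was tested on simulated libraries with mouse gene lengths in both species, so unequal models were not covered. The recovery was tested on 1000 simulated mouse genes, of which 93.0% had their length found exactly, and not on pika models.

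The members and lists were chosen with earlier results of these data known. All 10 members were to be named. From each pathway list up to 3 called genes with the largest fold change and up to 2 not called with the highest level could be named, from each marker list up to 2 with the highest level, and the 5 genes nearest the members' mean profile. Pairs of members were compared by an exact permutation test. Promoter sequences are from RefSeq. Replicate numbers were not taken to pair pika with mouse libraries. Scripts ran in Python 3.11.15 with scipy 1.17.1, pandas 2.3.3 and numpy 2.4.6.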

Additional observations from a re-analysis of the deposited data

How the results depend on the processing

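Of the 16 alternatives, including each library left out in turn, 13 kept the count of the 10 genes called higher at 9. It was 10 without rescaling, where 58.3% of all tested genes were called higher. It was 8 with median-of-ratios scaling (25.0% of all tested genes) and 8 without division by gene length (25.7%). CCNE2, CCNA2, CCNB1, CCNB2, CDK1, CDK2, E2F7 and E2F8 were called higher under all 16. The share of all tested genes called higher ran from 21.8% with no filter on low values to 58.3% without rescaling. Over all tested genes the count called higher was 6029 without rescaling, and that called lower was 1106 without rescaling and 1584 with a filter at a mean FPKM of 5. Higher calls made up 55.0% of calls in the main analysis, 84.5% without rescaling and 48.9% with median-of-ratios scaling. The median log2 fold change of the 10 genes was 2.25 with a pseudocount of 5, 3.46 without rescaling and 2.38 with median-of-ratios scaling. Signs changed without division by gene length for CCNE1 (-0.50), E2F1 (-0.17), TFDP2 (-0.85), ANAPC11 (-0.49), CDK14 (-0.087), CCNI (0.32), MITF (0.51) and LIN52 (0.25). They changed without rescaling for CKS1B (0.78), CCNI (0.79), RRM2 (0.95), VIM (1.01), MITF (0.90) and LIN52 (0.10). Among pairs, signs changed without length for CCNB1 minus CCNB2 (-0.41), CCNB1 minus CDK1 (0.18), CDK1 minus CDK2 (-1.16) and E2F7 minus E2F8 (-0.56). With single libraries left out, the shift of CCNB1 minus CDK1 ranged from -0.096 to 0.076 and that of E2F7 minus E2F8 from -0.107 to 0.117. RB1 passed the fold minimum without pika replicate 1 (1.02) or mouse replicate 1 (1.01). Calls were also gained without rescaling by TFDP1 (1.95) and ANAPC5 (1.89), and lost without length by NUDT5 (0.96) and CD68 (-0.53). The causes were not tested. A fit with the replicate number as a block called 9 of the 10 genes higher, 2972 genes higher and 2433 lower in all, and ended no call of the 10. Same-numbered libraries had correlations of deviations of -0.01, 0.05 and 0.01, beside -0.042 to 0.037 for libraries with different numbers. Values this small do not tell whether any libraries shared a batch. Mouse reads over 3 libraries came to 105 for CCNE1, 107 for E2F7 and 108 for E2F8, and to 4 for E2F2, 17 for LIN9 and 44 for MYBL2, which limits the precision of their values. Adding the pseudogene rows was chosen after seeing the data.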
